A study of Homo sapiens with 6 samples.

Results

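E2F2, E2F8, MYBL2, MCM5, MCM6 and POLE2 are 6 genes of the programme that E2F transcription factors switch on as a cell enters S phase, and their RNA was followed in NCI-H292 cells treated with mitoxantrone. They were chosen by gene symbol, and each symbol matched 1 row, giving 6 of the 1305 genes in the deposited table. NCI-H292 is an established human lung cancer line. The series has 3 libraries from cells given 50 nM mitoxantrone, a cytotoxic drug that traps topoisomerase II on DNA and leaves DNA breaks, for 48 hours, and 3 from cells given DMSO, the solvent, at a dilution of 1 in 1000 for the same 48 hours. Both groups are the same line and differ by treatment alone in the labels. The series title places them in work on drug-induced senescence, a lasting arrest of the cell cycle, and on therapy directed at LUNX.

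The table is a selection: every gene in it differs between these libraries by 1.0 or more on the authors' log2 scale and has a deposited adjusted p of at most 0.0428. That the 6 genes changed is therefore given by their presence in it, and the values below describe the size and evenness of the change and its place among related genes. Genes outside the table were not analysed here. The libraries held 14762530 to 15663284 assigned reads with mitoxantrone and 15789501 to 17817817 with DMSO. The labels do not say whether each came from a culture of its own, so the spread behind every p-value is that of these 6 samples and could be technical. Of 8 epithelial markers KRT8 and KRT18 were in the table, with mean levels of 1093 and 909 FPKM (reads scaled to gene length and library total) with mitoxantrone and 409 and 416 FPKM with DMSO. Of 7 leukocyte, fibroblast and endothelial markers CD14 and COL1A1 were in it, at mean levels of 0.833 and 0.873 FPKM with mitoxantrone and 1.95 and 2.26 FPKM with DMSO. The part of these cell markers in the results was not tested. In bulk RNA, fewer cells of a kind, such as cells in S phase, and less RNA per cell cannot be told apart.

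E2F factors bind DNA with a DP partner and are held in check by the retinoblastoma protein RB until cyclin-dependent kinases phosphorylate it. Their targets include the genes that build the replication machinery: the MCM2 to MCM7 ring is loaded on origins and, with CDC45 and GINS, becomes the helicase that unwinds DNA ahead of the polymerases. MYBL2 (B-MYB) is an E2F target that joins the MuvB complex and carries the programme on to genes of G2 and mitosis. E2F2 is an activating E2F, whereas E2F8 is an atypical one that acts without DP, is itself an E2F target and represses E2F targets. POLE2 is the accessory B subunit of DNA polymerase epsilon, the leading-strand enzyme.

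Promoters of 4 of the 6 genes, matched by symbol in RefSeq (build GRCh38.p14), are shown because E2F factors act on such sequences. The promoter set used had no entry for E2F8 and MCM5, so theirs are not shown. A part of these sequences in the falls was not tested. Each runs from 250 bases before the gene's start to 50 after it, 5′ to 3′ on the gene's strand, with capitals marking matches to TTTNNCGC, a common form of the E2F consensus, or to GGCGGGA, a shorter E2F core, on either strand.
E2F2 promoter (chr1:23531184-23531483, minus strand): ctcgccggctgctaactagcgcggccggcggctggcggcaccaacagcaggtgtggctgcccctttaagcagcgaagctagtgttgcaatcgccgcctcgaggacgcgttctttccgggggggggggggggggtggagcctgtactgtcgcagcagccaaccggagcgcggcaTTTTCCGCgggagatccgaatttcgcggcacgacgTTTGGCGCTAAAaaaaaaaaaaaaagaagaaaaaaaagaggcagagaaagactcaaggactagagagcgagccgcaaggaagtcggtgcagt
MCM6 promoter (chr2:135876394-135876693, minus strand): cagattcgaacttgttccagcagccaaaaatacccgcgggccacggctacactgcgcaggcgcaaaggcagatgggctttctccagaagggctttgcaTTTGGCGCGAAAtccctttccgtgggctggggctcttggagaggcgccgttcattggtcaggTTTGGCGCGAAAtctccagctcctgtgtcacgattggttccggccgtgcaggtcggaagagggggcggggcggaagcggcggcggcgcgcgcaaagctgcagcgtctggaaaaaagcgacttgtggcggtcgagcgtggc
POLE2 promoter (chr14:49688165-49688464, minus strand): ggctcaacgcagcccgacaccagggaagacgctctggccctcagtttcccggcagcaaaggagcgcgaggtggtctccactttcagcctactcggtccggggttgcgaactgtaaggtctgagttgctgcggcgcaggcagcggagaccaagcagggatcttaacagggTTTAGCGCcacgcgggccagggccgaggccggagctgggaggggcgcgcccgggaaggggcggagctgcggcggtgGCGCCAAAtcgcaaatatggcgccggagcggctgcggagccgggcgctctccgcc
MYBL2 promoter (chr20:43666864-43667163, plus strand): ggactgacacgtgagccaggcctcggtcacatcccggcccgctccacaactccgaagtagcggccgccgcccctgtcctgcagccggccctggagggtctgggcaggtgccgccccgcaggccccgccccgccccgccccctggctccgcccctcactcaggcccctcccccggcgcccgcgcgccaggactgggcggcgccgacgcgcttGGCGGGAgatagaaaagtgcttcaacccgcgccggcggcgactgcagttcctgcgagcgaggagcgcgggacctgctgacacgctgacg
The MCM6 promoter held TTTGGCGCGAAA at 2 places, with first bases 152 and 90 before the start, each of which matches TTTNNCGC once per strand. The E2F2 promoter held TTTGGCGC 42 bases before the start, with an overlapping match on the other strand, and TTTTCCGC 77 bases before it. POLE2 had TTTAGCGC 81 bases before the start, and the letters GCGCCAAA, a match on the other strand, from 5 bases before it. MYBL2 had no TTTNNCGC in its window and held GGCGGGA 39 bases before the start.

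Over all 35116 RefSeq promoters of the same length, 6.89% held TTTNNCGC and 15.4% held GGCGGGA, against 3 and 1 of the 4 shown. TTTGAA and TTCGAA, forms of the CHR element through which MuvB complexes act, were in 15.2% and 1.45% of all promoters, and CCAAT was in 34.6%. Of the 4, MCM6 held TTCGAA once and CCAAT, on the other strand, at 2 places, and none held TTTGAA. Matches to GGCGGGA and TTTNNCGC can overlap in other sequences but did not in these 4. The motifs were chosen after these promoters had been read, a match is a description of letters and not a bound site, and no binding was measured here.

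All 6 genes were lower with mitoxantrone in every library of that group than in any DMSO library. Tested with edgeR's quasi-likelihood fit, its p-values adjusted by Benjamini and Hochberg's method for 18310 tests, 6 of 6 passed an adjusted p of 0.05 as lower, where 35.3% of the 1305 listed genes passed in that direction and 56.7% passed as higher. Among all listed genes, 38.5% had every mitoxantrone library below every DMSO library, without overlap, and 60.1% had every one above. Both results are common to nearly all lower genes of this selection. Of 512 such genes, 461 passed as lower and 503 had groups without overlap. The median log2 fold change was -1.48 over the 6 genes, 1.26 over all listed genes and -1.51 over the 512 lower ones. The median of the 6 thus lies close to that of the lower genes. By size of fall among the 512, E2F2 ranked 95, E2F8 150, MYBL2 253, MCM5 285, POLE2 305 and MCM6 326. The E2F factor genes had the largest falls of the 6, and the genes are taken in turn below, factors first.

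**Figure D1:**
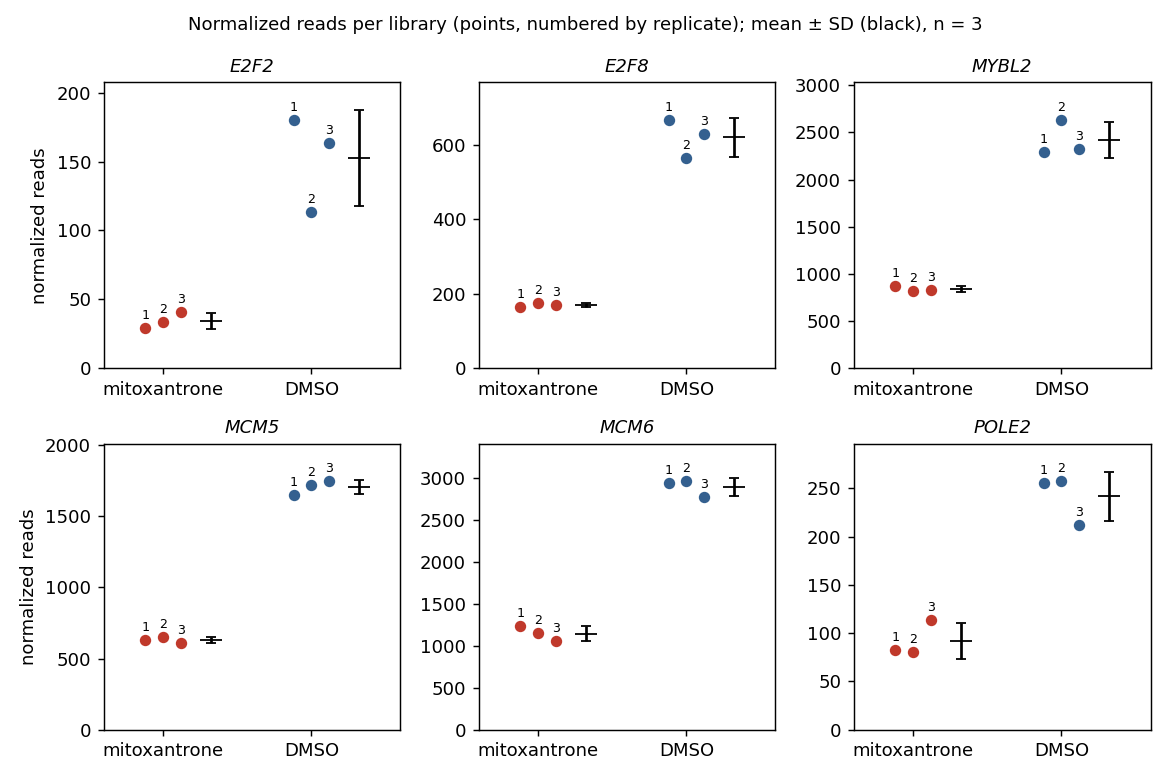
Normalized reads (reads divided by the authors' size factor of the library, vertical axes from 0) of each of the 6 genes in 3 mitoxantrone libraries (red) and 3 DMSO libraries (blue), numbered by replicate, with mean ± SD in black. In every panel the mitoxantrone points lie below the DMSO points, and DMSO replicate 2 stands low for E2F2 at 113.

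E2F2 was the scarcest of the 6 and had the largest fall. The gene (ENSG00000007968) lies on chromosome 1 from 23832922 to 23857712, minus strand, in the coordinates of the deposited table, whose build is not given in the sources used here. It had 29.4, 33.3 and 40.8 normalized reads in the mitoxantrone libraries, against 180.45, 113 and 164 in the DMSO libraries. The DMSO libraries were uneven, with replicate 2 at 0.659 times the mean of the other two, and the highest mitoxantrone library was at 0.36 times that lowest DMSO library. The means were 34.5 ± 5.78 with mitoxantrone and 152 ± 34.9 with DMSO (SD, n = 3 each). E2F2 was 4.41-fold lower, or -2.14 ± 0.23 (SE) on the log2 scale, and edgeR gave it an adjusted p of 8.1e-06. That fall ranked 95 among the 512 lower genes. Depth limits this gene most, since 96 reads with mitoxantrone and 511 with DMSO stand behind it over 3 libraries each. Counting alone gives a coefficient of variation of 17.7% with mitoxantrone, close to the 16.8% seen between those libraries, and 7.66% with DMSO, where 22.9% was seen.

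E2F8 fell 3.64-fold. The gene (ENSG00000129173, chromosome 11 from 19245610 to 19263167, minus strand) had 164, 175 and 171 normalized reads in the mitoxantrone libraries, against 667, 563 and 628 in the DMSO libraries. The mitoxantrone libraries were nearly level, and DMSO replicate 2 was again the lowest of its group, as for E2F2. The means were 169.9 ± 5.59 with mitoxantrone and 619 ± 52.7 with DMSO (SD, n = 3 each), and the change was -1.87 ± 0.14 (SE) on the log2 scale, with an adjusted p of 2.2e-07 from edgeR. An antisense gene on the other strand overlaps E2F8 in GENCODE release 29, and the labels do not say that counting used strand, so its reads cannot be told apart from those of E2F8.

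MYBL2 fell 2.87-fold. The gene (ENSG00000101057, chromosome 20 from 42295754 to 42345136, plus strand) had 872, 819 and 832 normalized reads in the mitoxantrone libraries, against 2288, 2635 and 2325 in the DMSO libraries. Here DMSO replicate 2 was the highest of its group, the reverse of its place for E2F2 and E2F8. The means were 841 ± 27.5 with mitoxantrone and 2416 ± 190.2 with DMSO (SD, n = 3 each), a change of -1.52 ± 0.13 (SE) on the log2 scale at an edgeR adjusted p of 8.6e-07.

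MCM5 and MCM6, which encode subunits of the helicase ring, fell by similar amounts. MCM5 (ENSG00000100297, chromosome 22 from 35796056 to 35821423, plus strand) had 629, 652 and 612 normalized reads in the mitoxantrone libraries, against 1649, 1719 and 1748 in the DMSO libraries. MCM6 (ENSG00000076003, chromosome 2 from 136597196 to 136633996, minus strand) had 1231, 1149 and 1056 normalized reads in the mitoxantrone libraries, against 2940.4, 2962 and 2772 in the DMSO libraries. MCM5 was even within each group. MCM6 varied more with mitoxantrone, with a coefficient of variation of 7.65% where counting alone gives 3.07%. Neither gene set DMSO replicate 2 apart. The means of MCM5 were 631 ± 20.3 with mitoxantrone and 1705 ± 50.8 with DMSO, and those of MCM6 were 1146 ± 87.7 with mitoxantrone and 2891 ± 104 with DMSO (SD, n = 3 each). MCM5 was 2.70-fold lower, or -1.43 ± 0.13 (SE) on the log2 scale, with an edgeR adjusted p of 1.1e-06. MCM6 was 2.52-fold lower, or -1.34 ± 0.13 (SE), with an edgeR adjusted p of 3.2e-06. Of the 6 subunits MCM2 to MCM7 these 2 were in the table, and the other 4 were not analysed here.

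POLE2 fell 2.62-fold. The gene (ENSG00000100479, chromosome 14 from 50110273 to 50155140, minus strand) had 82.5, 80.2 and 114 normalized reads in the mitoxantrone libraries, against 255, 258 and 212 in the DMSO libraries. Replicate 3 stood apart in each group, higher than the others with mitoxantrone and lower with DMSO, and the ratio of these 2 libraries was 0.535. The means were 92.2 ± 18.7 with mitoxantrone and 242 ± 25.4 with DMSO (SD, n = 3 each). On the log2 scale the change was -1.39 ± 0.18 (SE), and edgeR's adjusted p of 4.0e-05 was the largest of the 6. Without mitoxantrone replicate 3 it was -1.57. In GENCODE release 29, 3 short genes on the other strand, of which 2 are processed pseudogenes and 1 a small nuclear RNA gene, overlap POLE2. POLE2 was the 1 listed gene of the 4 polymerase epsilon subunits.

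The authors' deposited table gave slightly smaller changes than the fit, with log2 fold changes of -1.96 for E2F2, -1.81 for E2F8, -1.50 for MYBL2, -1.41 for MCM5, -1.31 for MCM6 and -1.32 for POLE2. The deposited adjusted p-values ran from 6.15e-45 for MYBL2 to 1.33e-12 for POLE2 in the authors' deposited table. The order of the 6 genes by size of fall was the same in both sources.

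Levels per length were compared on the authors' FPKM scale. MYBL2 was the most abundant, at 19.5, 18.7 and 19.5 FPKM with mitoxantrone, against 56.4, 60.4 and 56.8 FPKM with DMSO. MCM6 followed with a mean of 17.0 ± 0.901 FPKM with mitoxantrone and 45.2 ± 1.77 FPKM with DMSO, and MCM5 with 5.27 ± 0.163 FPKM with mitoxantrone and 14.95 ± 0.605 FPKM with DMSO (SD, n = 3 each). The remaining genes were scarcer. E2F8 averaged 2.52 ± 0.127 FPKM with mitoxantrone and 9.65 ± 1.18 FPKM with DMSO (SD, n = 3 each). POLE2 averaged 1.92 ± 0.436 FPKM with mitoxantrone and 5.26 ± 0.507 FPKM with DMSO, and E2F2 0.387 ± 0.0764 FPKM with mitoxantrone and 1.81 ± 0.473 FPKM with DMSO (SD, n = 3 each). With the listed gene lengths, the order MYBL2, MCM6, MCM5, E2F8, POLE2, E2F2 held in both groups. Neighbours in that order did not overlap, except E2F8 and POLE2 with mitoxantrone, where the lowest E2F8 library had 2.37 and the highest POLE2 library 2.42 FPKM. These levels depend on the gene length used. The listed length of MCM5, 7338 bases, equals the union of its exons in GENCODE release 29. It is 2.08 times the longest coding transcript of MCM5, of 3534 bases. The same ratio is 1.10 for MCM6, 0.992 for MYBL2, 1.18 for E2F8 and 1.65 for POLE2. With mitoxantrone, the order of E2F8 and POLE2 and the gap between MYBL2 and MCM6 therefore rest on the listed lengths. Fold changes between groups do not depend on the length used.

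Ratios between 2 of the genes within a library do not depend on how libraries were scaled, and show whether the 6 fell by the same factor. E2F8 was lower relative to the helicase subunit genes with mitoxantrone. The log2 ratio of E2F8 to MCM5 was -1.94, -1.90 and -1.84 in the mitoxantrone libraries, against -1.31, -1.61 and -1.48 in the DMSO libraries, a difference of -0.43. The log2 ratio of E2F8 to MCM6 was -2.91, -2.71 and -2.63 with mitoxantrone and -2.14, -2.40 and -2.14 with DMSO, a difference of -0.53. Neither pair of groups overlapped. The groups overlapped for the ratio of MCM5 to MCM6, with mean log2 values of -0.86 ± 0.10 with mitoxantrone and -0.76 ± 0.09 with DMSO (SD, n = 3 each). MYBL2 against MCM5 differed by -0.09 and MCM6 against POLE2 by 0.07, again with overlapping groups.

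Of the 15 pairs, 4 had groups that did not overlap: E2F8 against MCM5, MCM6 and POLE2, and E2F2 against POLE2. A two-sided exact permutation test of 3 against 3 libraries cannot go below 0.10, which those 4 pairs reached, and with Benjamini-Hochberg adjustment over the 15 pairs the smallest value was 0.30. No difference between the falls of 2 genes therefore passed, and this permutation test could not have passed one with 3 libraries a group, so the result does not show that the 6 genes fell alike. The separation of E2F8 and POLE2 was narrow, with log2 ratios of 1.126 in mitoxantrone replicate 2 and 1.127 in DMSO replicate 2. In ratios of the rounded FPKM values the groups of that pair overlapped, at 0.642 and 0.640 in the same libraries. For E2F2, whose ratio to MCM6 differed by -0.79, the uneven DMSO replicate 2 made the groups overlap, with -4.71 there and -4.70 in mitoxantrone replicate 3.

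**Figure D2:**
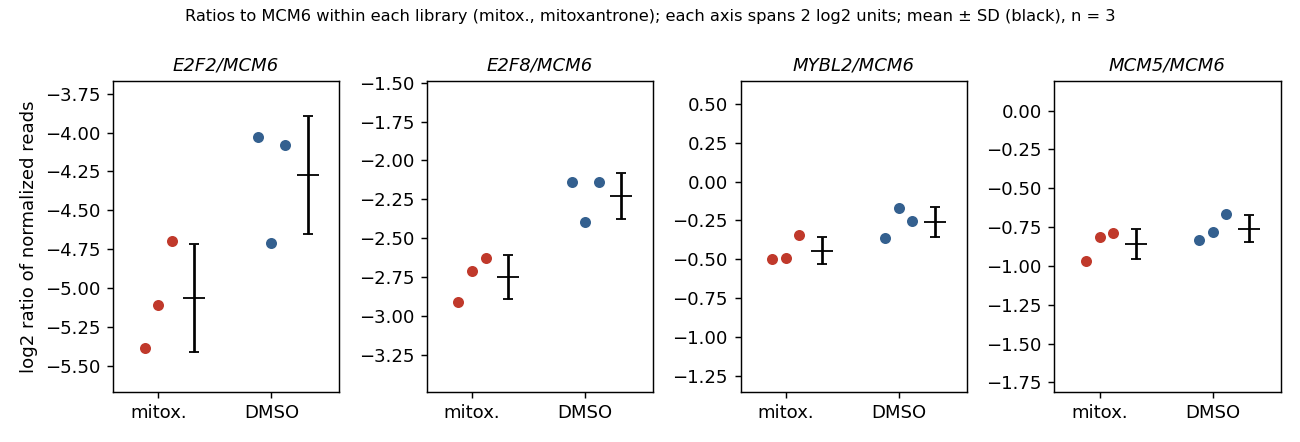
Log2 ratios of normalized reads of E2F2, E2F8, MYBL2 and MCM5 to MCM6 within each mitoxantrone library (red, left) and DMSO library (blue, right), with mean ± SD in black and each axis spanning 2 log2 units. The groups separate for E2F8 (difference -0.53) and overlap for the other 3.

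Related genes were taken from 7 lists of the E2F and replication pathway, which beside the 6 genes hold another 123. Of those 123 genes, 21 were in the table, and 18 of the 21 passed as lower and 3 as higher (edgeR), with a median log2 fold change of -1.11. The median over all listed genes was 1.26, and 35.3% of them passed as lower. Of about 18310 genes that the authors tested, 1305 were listed, 793 as higher and 512 as lower. The selection limit of 1.0 in either direction bounds these medians. The 3 replication lists hold 71 genes, MCM5, MCM6 and POLE2 included. Of these, 8 were in the table, all lower and passing, and 5 of the 8 are not among the 6 genes. None of the 7 deoxynucleotide synthesis genes was in the table.

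Among the transcription factors, 3 of the 8 genes E2F1 to E2F8 were listed, and E2F1, an activating E2F, fell beside E2F2 and E2F8. It had 291.7, 287 and 254 normalized reads in the mitoxantrone libraries, against 649, 944 and 597 in the DMSO libraries, with DMSO replicate 2 the highest, and changed by -1.39 ± 0.17 (SE) on the log2 scale, at an edgeR adjusted p of 2.8e-05. FOXM1, which binds the MuvB complex after MYBL2, had 1069.7, 1285 and 1257 normalized reads in the mitoxantrone libraries, against 2922, 2346 and 2781 in the DMSO libraries, a change of -1.16 ± 0.14 (SE) on the log2 scale. MYBL2 and FOXM1 were the 2 listed genes of the 11 in the list of RB family, MuvB, MYB and FOXM1 genes, and 3 of the 11 E2F and DP genes were listed, all lower.

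The helicase list had 5 listed genes of 32, all lower. Beside MCM5 and MCM6 these were GINS2, a subunit of GINS, with a log2 fold change of -1.11, CDC7, the kinase that activates the loaded helicase, with -1.04, and RECQL4, a helicase needed to start replication, with -1.02. The polymerase and fork list had 3 listed genes of 32, all lower, which were POLE2, the clamp loader subunit gene RFC4 with -1.21 and the histone chaperone gene ASF1B with -1.11. The 5 listed replication genes other than MCM5, MCM6 and POLE2 thus had log2 fold changes between -1.21 and -1.02. The selection limit of 1.0 bounds this range, which does not describe genes outside the table. Of 18 other E2F-responsive genes 5 were listed and lower, among them UHRF1, which maintains DNA methylation at replication forks, with -1.32 and EZH2, the Polycomb histone methyltransferase gene, with -1.09.

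The list of G1/S cyclins, kinases and inhibitors moved both ways, with 9 of 18 listed, 6 lower and 3 higher. CDKN1A, which encodes p21, the inhibitor of the kinases that free E2F from RB, had 19137, 19033 and 18214 normalized reads in the mitoxantrone libraries, against 2850.2, 3503 and 3247 in the DMSO libraries, a log2 fold change of 2.55. The cyclin D genes CCND1 and CCND2, whose products act upstream of E2F, rose with log2 fold changes of 1.11 and 1.12. CCNA2, the S phase cyclin gene and an E2F target, fell with -1.10, and CDKN2C, which encodes the inhibitor p18, fell with -2.22, near the size of E2F2. The inhibitor genes CDKN2A, CDKN2D and CDKN1B fell as well, with -1.48, -1.22 and -1.03. CDKN1C, another inhibitor gene, had the largest fall of the list at -3.36 ± 0.51 (SE) on the log2 scale. It was scarce, with 1.13, 4.17 and 5.37 normalized reads with mitoxantrone and 22.3, 37.1 and 54.8 with DMSO. Of the listed inhibitor genes, CDKN1A alone rose.

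**Figure D3:**
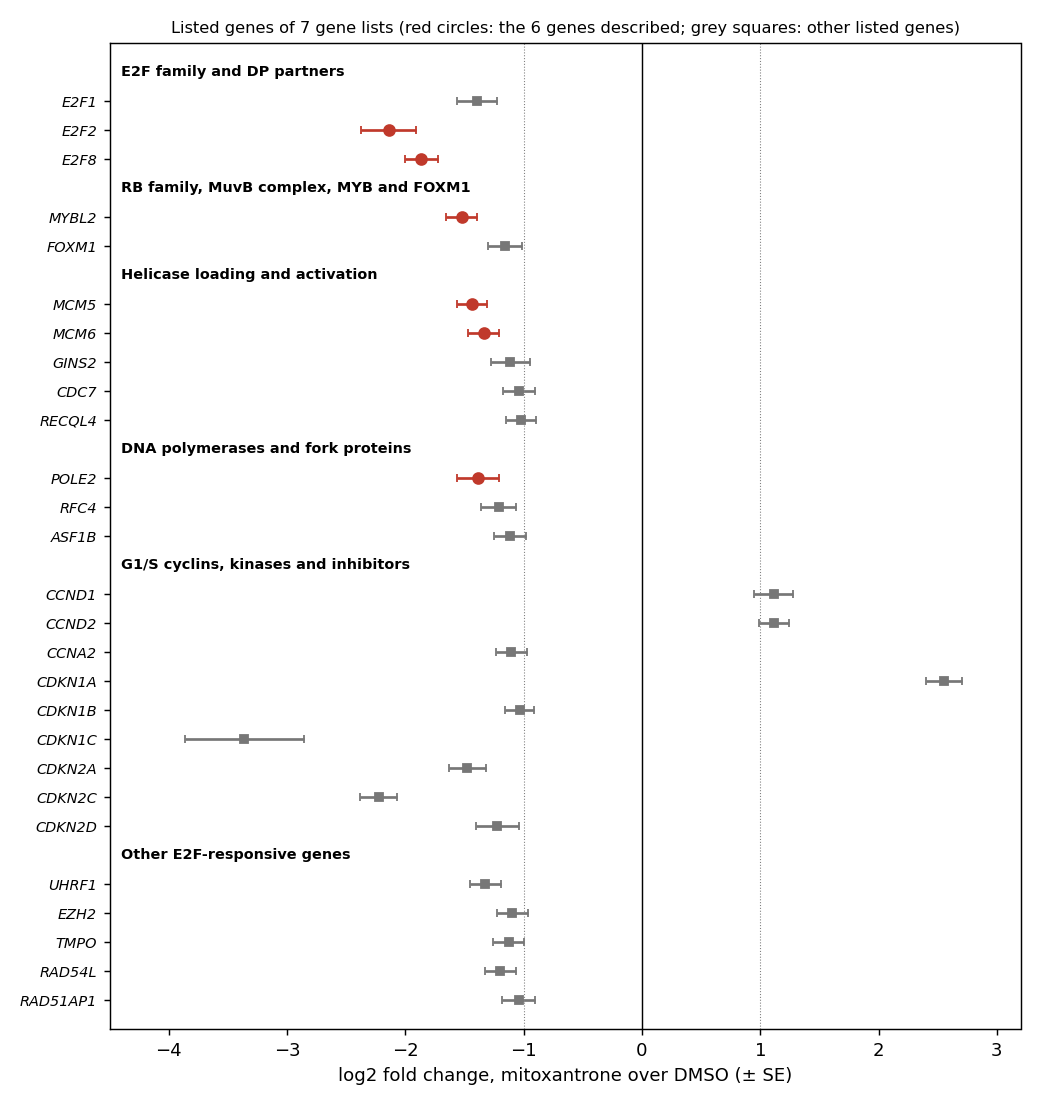
Log2 fold change, mitoxantrone over DMSO, with its standard error (horizontal axis) of every listed gene in the 7 lists, grouped by list; the deoxynucleotide list had no listed gene. The 6 genes (red circles) run from -2.14 for E2F2 to -1.34 for MCM6, and among the other genes (grey squares) CDKN1A, CCND1 and CCND2 lie to the right of 0.

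In the authors' annotation, 5 of the 6 genes, all except E2F8, carry the term mitotic cell cycle, which 42 listed genes carry; 40 of these passed as lower and 2 as higher, beside 35.3% lower and 56.7% higher over all listed genes. MCM5, MCM6 and POLE2 share a further 3 terms. Of the 16 listed genes with the G1/S transition term, 11 passed as lower and 4 as higher, and of the 15 with the DNA replication term, 13 passed as lower and 1 as higher. The term DNA replication initiation is carried by no other listed gene. The terms were read after the values and are not independent of the lists.

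Profiles over the 6 libraries were compared among the 707 listed genes with a mean of at least 50 normalized reads, by the root mean square difference of log2 values centred on each gene's mean. MYBL2, MCM5 and MCM6 were close to each other, at 0.089 to 0.125, and E2F2 was closest to E2F8, at 0.240, and 0.464 to 0.536 from the others. The genes nearest to the mean profile of the 6 were EN2 (0.066), a homeobox factor gene, GAS2L3 (0.069), a cytoskeletal protein gene, CAMKK1 (0.086), a calcium-dependent kinase gene, FAM111B (0.113) and TCF19 (0.115), with log2 fold changes from -1.70 for EN2 to -1.57 for TCF19. For comparison, the median distance of the lower genes was 0.304. The 6 genes themselves lay at 0.117 (MYBL2) to 0.358 (E2F2) from their mean profile, so that E2F2 was farther from it than the median lower gene. The single nearest gene was TCF19 for MYBL2 (0.055), ANP32E, a histone chaperone gene, for MCM6 (0.054), PHF19, a Polycomb-associated gene, for MCM5 (0.065), RP6-24A23.7 for E2F2 (0.076), FAM101B for E2F8 (0.089) and HOXA5 for POLE2 (0.145). With 2 groups of 3 libraries these distances mostly reflect the size of the fall.

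**Figure D4:**
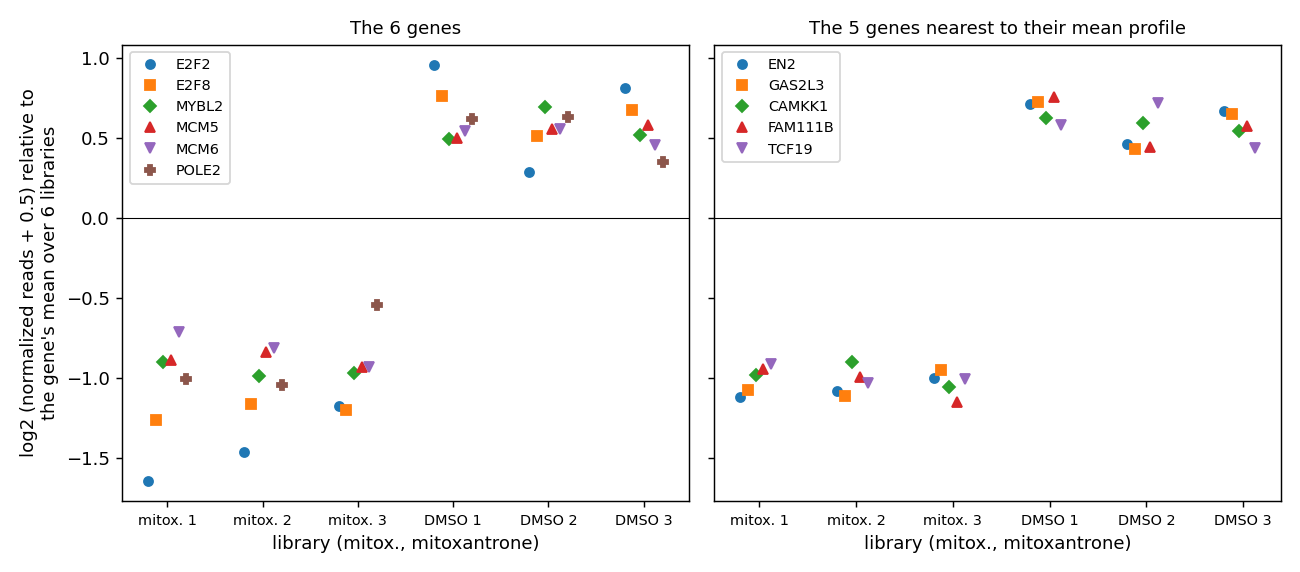
Log2 of normalized reads + 0.5 relative to each gene's mean over 6 libraries (vertical axis) in each mitoxantrone and DMSO library, for the 6 genes (left) and the 5 genes nearest to their mean profile (right). Among the 6 genes, E2F2 was lowest in mitoxantrone replicates 1 and 2 and in DMSO replicate 2.

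The fall of each gene passed the threshold under all 15 other settings tried. Under the same settings 395 to 512 of the 1305 listed genes passed as lower, so passing is common to most lower genes of this selection. In 2 kinds of setting a fall changed in size by over 1.5 times, in the first for all 6 genes and in the second for E2F2 alone. Size factors taken from just the listed genes shifted the median of all listed genes by -0.69 (TMM) or -0.99 (DESeq2 factors), since most of them are higher, and moved the 6 genes with it, to -2.33 for MCM6 and -3.13 for E2F2 with the latter. On the log2(FPKM + 1) scale the scarce E2F2 had a difference of -1.01, a scale that understates the change of low genes, and -1.95 with a pseudocount of 0.1. Without DMSO replicate 2, the uneven library, E2F2 changed by -2.31 on the log2 scale.

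**Figure D5:**
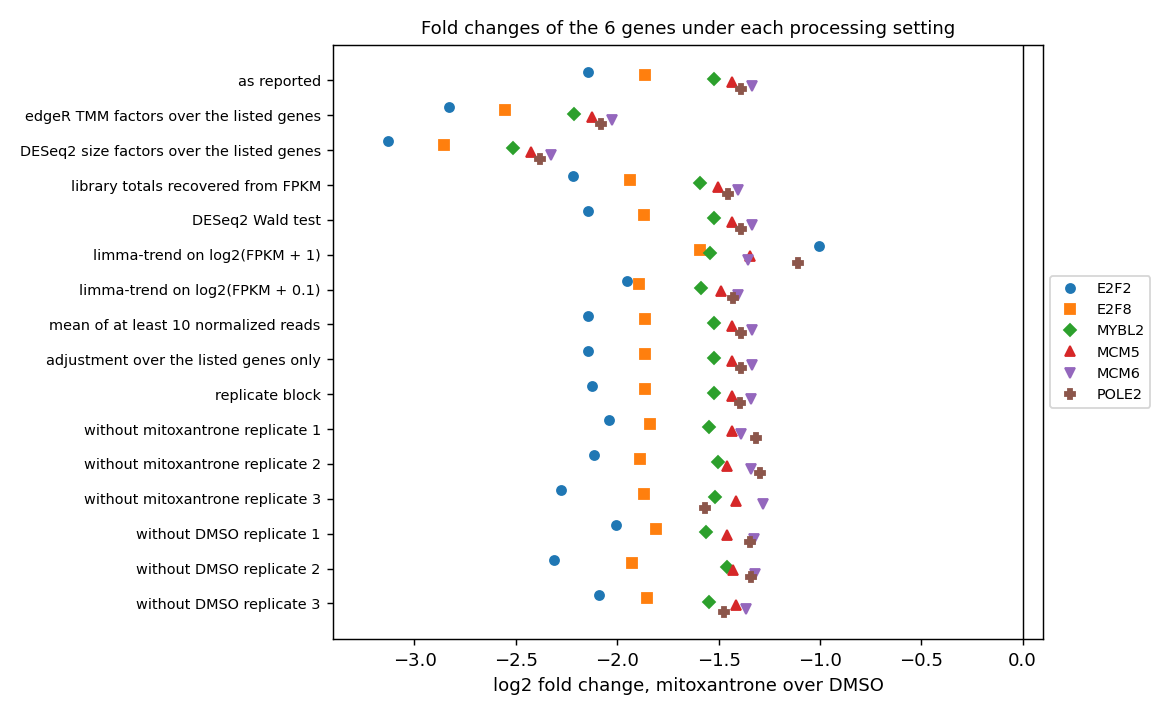
Log2 fold change, mitoxantrone over DMSO (horizontal axis), of the 6 genes (symbols) as reported and under 15 other settings (rows). All points lie left of 0; the widest spread is that of E2F2, from -3.13 to -1.01.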

How the data were processed

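The deposited table gives, per the file headers, a read count and an FPKM value for each gene in each library. Its further columns, also the authors', are a mean normalized count (a signal value), a log2 fold change and standard error, a Wald score and p-values. Named in the submitters' processing notes, with no role, are DESeq2, Cufflinks 2.2.1, HTSeq 0.6.1, HISAT2 2.0.1 and cutadapt 1.9.1; the genome build is not given in the sources used here, and the table's coordinates differed from GRCh38 in GENCODE release 29 for all 6 genes. The labels' protocols name both poly(A) selection and ribosomal RNA removal without saying which was used.

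Size factors (0.884, 0.96 and 0.932 for mitoxantrone; 1.16, 0.971 and 1.17 for DMSO) were solved from the read counts and mean normalized counts, with a largest relative error of 5.0e-10. Library totals were solved from FPKM, which they gave back for 100% of values within 0.006 or 0.02 percent. The authors' adjusted p-values placed the number of genes they tested between 18301 and 18318, and 18310 was used for adjustment, with ranks among the 1305 listed genes, which enlarges adjusted p-values. Counts were fitted for treatment alone over the whole table, with no filter, in edgeR 4.0.16 (limma 3.58.1, R 4.3.3), a step checked on simulated data. DESeq2 1.42.0 served as an alternative, and scipy 1.17.1 gave exact permutation tests. Dispersions from genes selected as changed tend to be too low. The simulated data took the same dispersions and left most genes unchanged, so that check could not show this. No 2 libraries of a group were duplicates, with a chi-square per gene of 2.91 to 25.43. The largest values were those of DMSO replicate 2, at 25.43 against replicate 1 and 18.96 against replicate 3. DMSO replicates 1 and 3 had 10.54.

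The members, lists, tests and alternatives were chosen with earlier results of these data known. The text names the 6 genes, listed genes of the 7 lists, the 5 genes nearest to the mean profile and the 1 nearest to each gene; MKI67, in the closing section, was added after its values were seen.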

Additional observations from a re-analysis of the deposited data

How the results depend on the processing

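Over 15 alternatives each, the log2 fold changes of the 6 genes kept their direction and passed an adjusted p of 0.05, with the largest adjusted p at 0.0015 for E2F2 on log2(FPKM + 1). Under these alternatives 395 to 512 of all listed genes passed as lower. Leaving out 1 library at a time gave -2.31 to -2.01 for E2F2, -1.93 to -1.81 for E2F8, -1.56 to -1.46 for MYBL2, -1.46 to -1.41 for MCM5, -1.39 to -1.28 for MCM6 and -1.57 to -1.30 for POLE2. The counts of lower genes in the 7 lists did not change when 1 library was left out. The count of all listed genes passing as higher, 740 beside 461 lower, was 366 with TMM factors and 219 with DESeq2 size factors over the listed genes, each beside 512 lower (41.7% and 30.0% higher, against 61.6%); these factors centre a set that is mostly higher, which lowers every fold change by construction. Within-library ratios from FPKM values kept the direction of all 15 pairs. That was fixed in advance, since they equal the ratios of reads times a fixed ratio of gene lengths, apart from rounding. Through rounding, 3 pairs did not overlap between groups in place of 4 (E2F8 against POLE2 overlapped). With the replicate number as a block 463 genes passed as lower and 736 as higher, and E2F2 had -2.12. No pairing by number was seen: deviations of same-numbered libraries from their group means correlated at -0.21, -0.14 and 0.02. No mitoxantrone library correlated best with the DMSO library of its own number. Deviations from a mean of 3 libraries are tied to each other, so these correlations cannot decide whether the libraries were paired. Depth limits E2F2 most, at 26 to 38 reads per mitoxantrone library.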

Other observations

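DMSO replicate 2 took different places for different genes of the programme. Among the 24 listed genes of the 7 lists that passed as lower, the 6 described genes included, it was the highest DMSO library for 13. Among these were E2F1, MYBL2, GINS2 and RFC4. MCM6 and POLE2 were also among them, by small margins of 2962 over 2940.4 and 258 over 255 normalized reads in DMSO replicate 1. It lay in the middle for 8 and was the lowest for 3, which were E2F2, E2F8 and FOXM1. The proliferation marker gene MKI67 had 2028, 3157 and 3423 normalized reads in the mitoxantrone libraries, against 9833, 3955 and 7853 in the DMSO libraries, so that DMSO replicate 2 lay near the mitoxantrone libraries for this gene and far from them for MYBL2, at 2635 against 819 to 872.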
